A study of Mus musculus with 6 samples.

Results

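The genes described here are 30 genes of cholesterol synthesis, uptake and efflux. They were measured by RNA-seq in activated mouse cells, labelled as CD8+ T cells, that received sphingosine-1-phosphate (S1P) or vehicle. They comprise 7 genes of early synthesis, 11 of late synthesis, 4 that control the transcription factor SREBP2, 4 of uptake, transport and storage, and 4 of efflux of the kind driven by the liver X receptors (LXR). The genes were named by their place in the pathway, with results of the S1P comparison already known, so every change between the groups is given for them as a description and supports nothing. The list is not every gene of the pathway. All 30 were found among the 56941 gene identifiers of the count table, and all 30 were among the 13299 genes with enough counts to test.

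S1P is a lipid messenger that acts on lymphocytes through a family of cell-surface receptors. Per the labels, naive CD8+ T cells were purified from spleens of B6 mice and activated for 3 days on plate-bound anti-CD3 and anti-CD28 with interleukin-2. At 24 h of activation the cultures received either S1P at 5 µM (3 samples) or vehicle (3 samples), and both groups otherwise shared the same stimulation and medium, which contained fetal calf serum. The study's methods name purified naive T cells or total splenocytes as the starting material for such cultures. The labels call the replicates biological without saying whether each came from its own mouse, so the spread given here is the spread between labelled samples.

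Cells make cholesterol from acetyl-CoA through mevalonate, isoprenoid diphosphates, squalene and lanosterol. When sterols in the endoplasmic reticulum are low, Scap carries SREBP2 to the Golgi, where it is cleaved into an active factor that switches on genes of synthesis and uptake; when sterols are plentiful, Insig1 and Insig2 hold Scap back. Sterol excess in turn activates LXR through oxysterols, which raises the exporters Abca1 and Abcg1. T cells that start to divide are known to turn up SREBP2 targets and to damp LXR, since new membranes need cholesterol.

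Library totals ran from 12048880 to 17384084 counts. The library of S1P replicate 2 stood apart from the other S1P-treated samples: its mitochondrial share was 7.80% against 4.10 to 4.93% in the other 5 libraries, and its counts differed from those of S1P replicates 1 and 3 by a mean chi-square per gene of 31.4 and 17.8, against 5.97 between replicates 1 and 3. The CD8+ label was checked against markers. Cd8a and the other 6 markers of the CD8 T cell list were present in every sample. They summed to 20324 to 23657 normalized counts in vehicle-treated and 17740 to 20286 in S1P-treated samples. Cd3d, Cd3e, Cd3g, Trac and Trbc2 on this list are shared with CD4 T cells, so the sum does not tell the lineages apart. Of the 7, 2 were called lower, Cd8a by 37.1% and Cd8b1 by 31.7%. In replicates 1, 2 and 3, Cd8a was at 3030, 3658 and 3028 with vehicle and 2101, 1925 and 2080 with S1P. Cd4, not called, was at 2939, 2716 and 3249 with vehicle and 2844, 3712 and 3009 with S1P. It exceeded Cd8a in vehicle replicate 3 and in every S1P-treated sample. Per length (RPKM, counts per kilobase of annotated exon, scaled to library size), Cd4 averaged 45.2 with vehicle and 48.6 with S1P. Cd8a averaged 61.0 and 38.3. Transcripts of other lymphocytes were present too, so the markers do not bear out the label as a pure population. All 5 B cell markers were detected, summing to 7711 to 9647 normalized counts with vehicle and 7644 to 8974 with S1P (Ms4a1 and Cd22 called lower, Ms4a1 not without vehicle replicate 1 or 3, while Pax5 was higher in every S1P-treated sample but not called), and the 3 CD4 T cell markers summed to 3016 to 3599 and 3193 to 4206 (Cd40lg called higher, a call lost without vehicle replicate 2 or S1P replicate 3). Of the 8 myeloid markers 6 had under 10 counts in every sample, with sums of 1169 to 1516 and 1441 to 1633 that were nearly all Mpeg1. The 4 NK cell markers summed to 26.1 to 29.97 and 22.2 to 46.1, and all 4 erythroid markers had under 10 counts in every sample. In bulk samples fewer cells of a type and less RNA per cell cannot be told apart, and the part of these cells in the levels below was not tested.

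Of the 30 genes, 18 were called higher and 1 lower in S1P-treated than in vehicle-treated samples, and 11 were not called. Following the study's methods, a call required an adjusted p no higher than 0.05, here from edgeR's quasi-likelihood test over all tested genes, together with a log2 fold change of 0.3 or more in either direction. Across all tested genes 23.1% were called, 12.7% higher and 10.4% lower. All 3 S1P-treated samples lay above all 3 vehicle-treated samples for 20 genes and below for 1, while 9 overlapped; over all tested genes the groups did not overlap for 45.6%, with S1P above for 23.0% and below for 22.6%. The median log2 fold change of the 30 was 0.38, with 26 of 30 above 0, and that of all tested genes was 0.01. The changes were small in size, from -0.42 to 0.73, so none of the 30 reached a log2 fold change of 1. With S1P replicate 2 left out the calls again numbered 18 higher and 1 lower, but not for the same genes: Insig1 was lost and Npc2 gained.

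**Figure D1:**
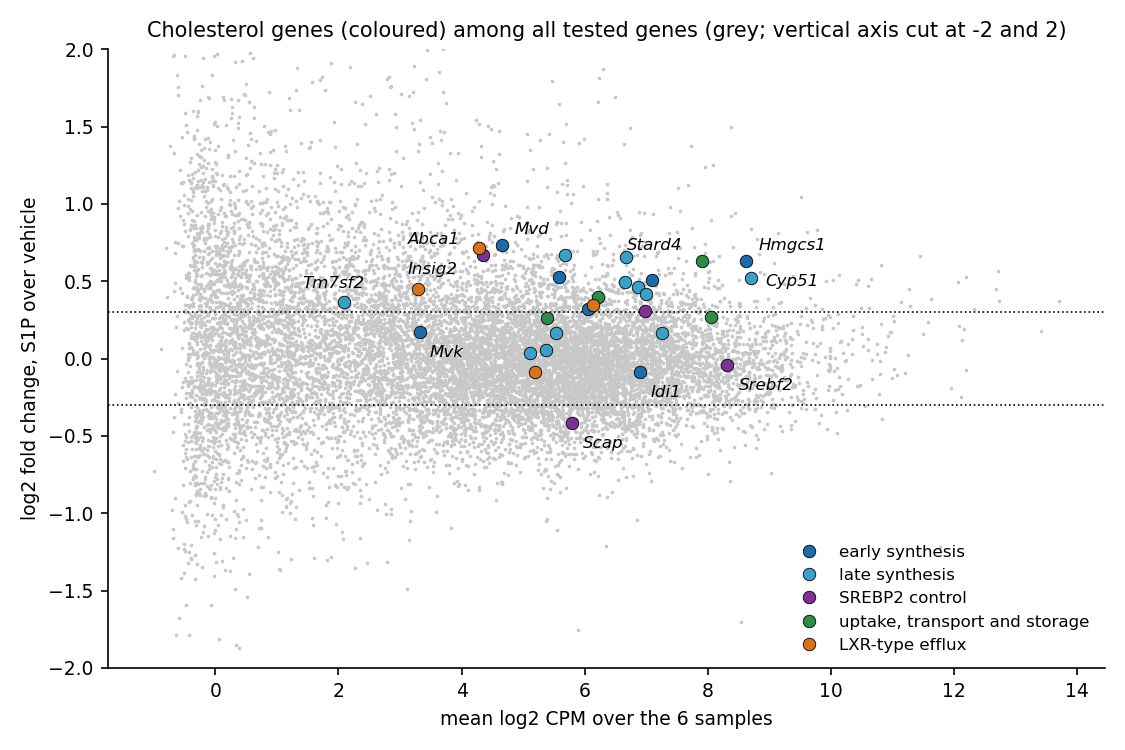
Each point is 1 gene, placed by its mean log2 CPM over the 6 samples (horizontal axis) and its log2 fold change of S1P over vehicle (vertical axis); cholesterol genes are coloured by role, all other tested genes are grey, dotted lines mark 0.3 in either direction, and 62 grey genes lie beyond the vertical axis limits of 2. Most coloured points lie above the upper line, with Scap alone below the lower one.

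Promoter stretches are shown for 5 of the genes, to set the letters that SREBP2 is known to read, and the CCAAT boxes known to bind its partner NF-Y, beside genes that were called and genes that were not. They come from the genome build GRCm39, from windows of 250 bases before to 50 bases after the start of each gene's canonical GENCODE vM39 transcript, with positions counted from that start; capitals mark the motifs. Hmgcs1, at chr13:120151744-120151907 (+ strand, -238 to -75), holds the sterol regulatory element TCACNCCAC, which there also contains the shorter core CACCNCAC, and, further on, a pair of CCAAT boxes read on the opposite strand as ATTGG. Acat2, at chr17:13179780-13179799 (- strand, -158 to -139), Sqle, at chr15:59186678-59186829 (+ strand, -204 to -53), and Hsd17b7, at chr1:169796877-169796945 (- strand, -132 to -64), hold the core without the full element, in the stretch shown beside CCAAT boxes in Sqle and beside 1 CCAAT box and the E-box CACGTG in Hsd17b7. Insig1, at chr5:28276188-28276204 (+ strand, -139 to -123), holds 1 CCAAT box there and not the core. The stretch of Hmgcs1 overlaps an exon of the noncoding gene Gm60502 on the other strand, that of Hsd17b7 overlaps an exon of 3110045C21Rik on the other strand, and the others overlap no annotated exon.
Hmgcs1: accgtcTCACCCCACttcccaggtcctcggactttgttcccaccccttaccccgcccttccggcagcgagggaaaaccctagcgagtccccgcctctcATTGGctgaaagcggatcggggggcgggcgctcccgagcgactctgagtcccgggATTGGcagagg
Acat2: cctccaCACCCCACcctaac
Sqle: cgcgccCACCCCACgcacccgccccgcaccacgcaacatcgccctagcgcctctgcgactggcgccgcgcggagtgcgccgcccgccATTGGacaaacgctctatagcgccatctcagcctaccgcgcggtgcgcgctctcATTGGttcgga
Hsd17b7: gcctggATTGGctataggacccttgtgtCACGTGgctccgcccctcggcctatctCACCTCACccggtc
Insig1: cctcccATTGGctccgg

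The full element TCACNCCAC, searched on both strands, was in the promoter window of 1 of the 30 genes and in 1.34% of the 21770 protein-coding promoters. Its core CACCNCAC was in 5 of 30 (the 4 named above and Stard4), against 6.59% of all promoters. The CCAAT box was in 21 of 30 (70%), and in 14 of the 18 synthesis genes (77.8%), against 39.9% of all promoters; it was in 8 of the 11 synthesis genes called higher and in 6 of the 7 not called. The E-box CACGTG was in 5 of 30 (Hsd17b7, Sc5d, Scap, Insig1 and Abca1) and in 2 of the 18 synthesis genes. It was in 7.81% of all promoters and in 10.4% of the 11273 promoters of tested genes. The LXR element known as DR4, searched as a perfect repeat, was found in none of the 21770 windows. The core, the CCAAT box and the E-box were searched after the match counts of the other 2 motifs were known. A match is a description of letters, and its absence says only that these letters are not in the window.

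Early synthesis runs from acetyl-CoA to farnesyl diphosphate. Of its 7 genes, 5 were called higher, against 12.7% of all tested genes, and 2 were not called, with a median log2 fold change of 0.51. Hmgcs1, the enzyme that joins acetyl-CoA and acetoacetyl-CoA to HMG-CoA and the gene whose promoter holds the full sterol element (ENSMUSG00000093930, chr13:120151915-120170470, + strand), stood at 4743, 5013 and 4144 normalized counts in vehicle-treated replicates 1, 2 and 3 and at 6657, 7345 and 7538 in the S1P-treated ones. Every S1P-treated sample exceeded every vehicle-treated one, with means of 4634 ± 445 and 7180.2 ± 463 (SD, n = 3 per group) and a log2 fold change of 0.63 (SE 0.08) or 1.55-fold. A normalized count is the count scaled to a common library size by TMM factors, and gene positions are those of GENCODE vM39 on GRCm39.

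Mvd (ENSMUSG00000006517, chr8:123160336-123170324, - strand), which decarboxylates mevalonate diphosphate, had the highest fold change of the 30 genes. Its values were 268, 323 and 266 with vehicle and 511, 437 and 469.8 with S1P, without overlap, a log2 fold change of 0.73 (SE 0.10). Of its exon bases 20.5% lie under Gm51557 on the other strand. Pmvk, the kinase just before it, was at 530.0, 595 and 614 with vehicle and 804, 838 and 868 with S1P, a log2 fold change of 0.53 (SE 0.08), again without overlap. Mvk, the kinase before Pmvk, did not follow this pattern: its values were 129.6, 147 and 138 with vehicle and 186, 111 and 162 with S1P. S1P replicate 2 was the lowest of all 6 samples and S1P replicates 1 and 3 the highest, and the log2 fold change of 0.17 (SE 0.17) was not called; it was 0.34 without S1P replicate 2, which was not called either, and -0.0062 without S1P replicate 1.

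Fdps (ENSMUSG00000059743, chr3:89000888-89019213, - strand), which builds farnesyl diphosphate, was at 1671, 1728 and 1611 with vehicle and 2578, 2140.1 and 2403 with S1P, a log2 fold change of 0.51 (SE 0.08) with no overlap. Its canonical transcript shares 72.3% of its 31-base stretches with transcripts of other genes, among them the pseudogenes Gm3571 and Gm5873. How the reads of Fdps were assigned is therefore uncertain. Acat2, the acetyl-CoA acetyltransferase that opens the pathway, was at 879, 934 and 785 and 1109, 1026 and 1099.9, above in every S1P-treated sample but near the threshold with a log2 fold change of 0.32 (SE 0.08); its call was lost without vehicle replicate 3, S1P replicate 1 or S1P replicate 3, where the log2 fold change was 0.25, 0.30 and 0.30. The canonical transcript of Acat2 shares 42.5% of its 31-base stretches with Acat3. Idi1, the isopentenyl diphosphate isomerase between Mvd and Fdps, lay apart from the rest, at 1854, 1936 and 1618 with vehicle and 1676, 1570.2 and 1850.4 with S1P, overlapping, with a log2 fold change of -0.09 (SE 0.09) that was not called. It shares 26.4% of its 31-base stretches with its own pseudogenes, which leaves its assignment uncertain as well.

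**Figure D2:**
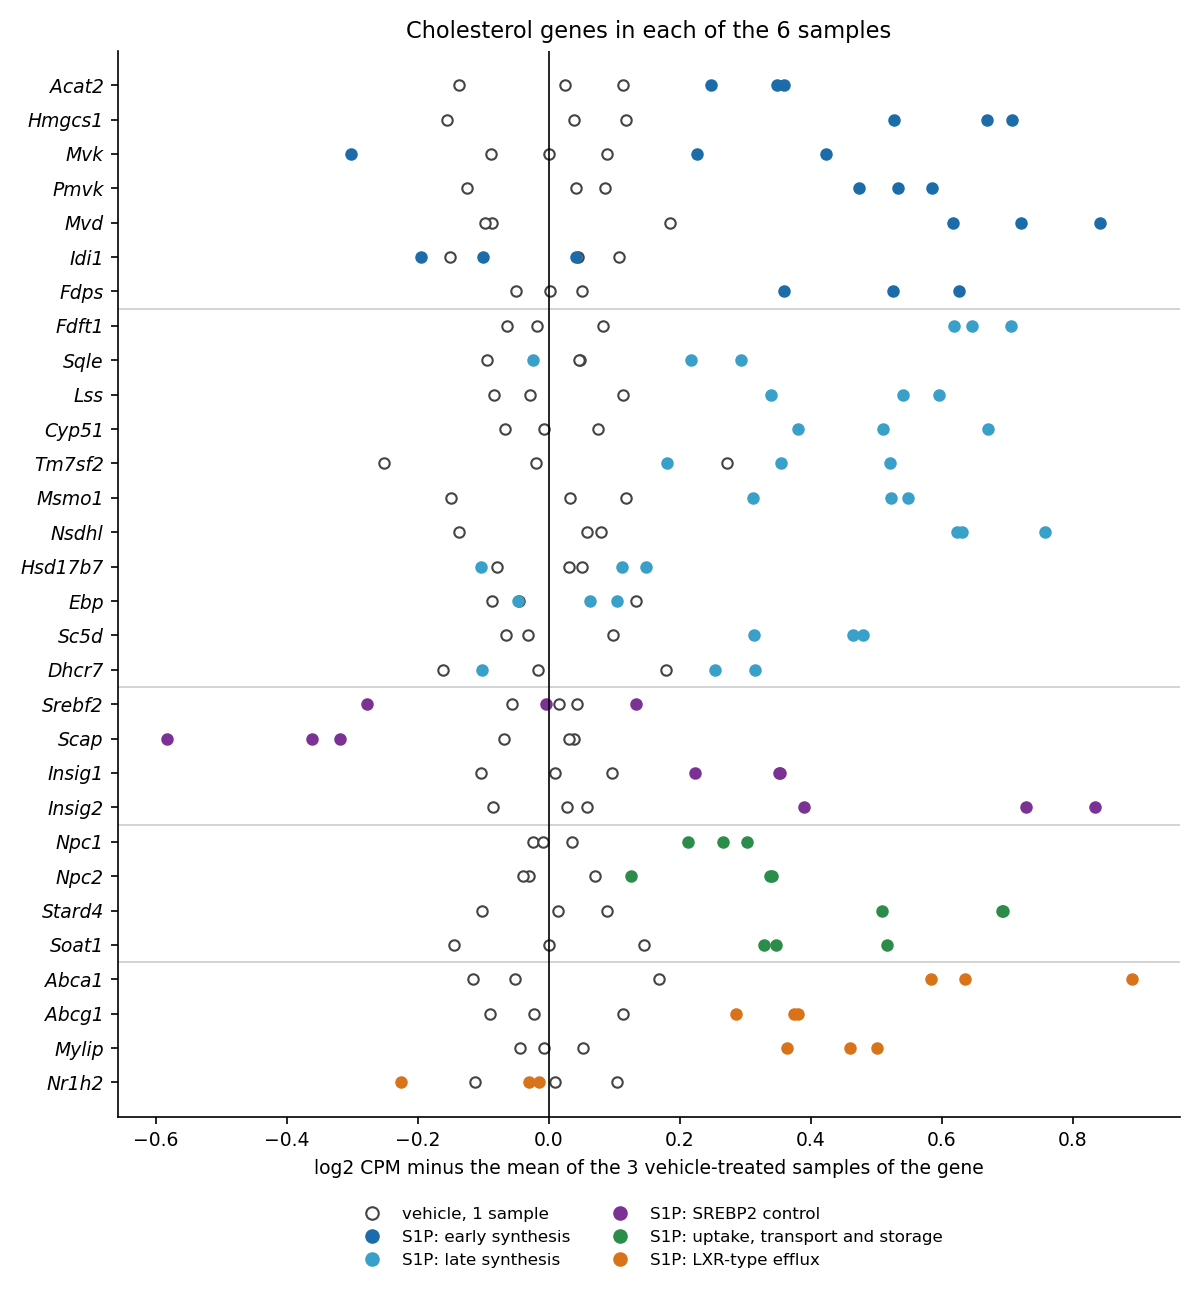
For each gene the log2 level of every sample is drawn relative to the mean of the 3 vehicle-treated samples (horizontal axis, log2; open points vehicle, filled points S1P, coloured by role). The filled points of Hmgcs1, Mvd, Fdft1 and Nsdhl lie clear of the open ones, those of Ebp lie among them, those of Idi1 and Srebf2 overlap them, and those of Scap lie to the left.

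Late synthesis runs from squalene to cholesterol. Of its 11 genes, 6 were called higher, against 12.7% of all tested genes, and 5 were not called. The median log2 fold change was 0.42 and all 11 values lay above 0, though that of Ebp turned negative when vehicle replicate 3 or S1P replicate 3 was left out. The called genes were spread along the chain and stood between genes that were not called.

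Fdft1 (ENSMUSG00000021273, chr14:63382189-63417027, - strand), the squalene synthase that commits farnesyl diphosphate to sterols, was at 1166, 1250.3 and 1129 with vehicle and 1813, 1926 and 1849 with S1P. The gap between the groups was wide against a spread of 1182 ± 62.2 and 1863 ± 57.8 (SD, n = 3 each), and the log2 fold change was 0.66 (SE 0.07). Of its exon bases 24.8% lie under Ctsb on the other strand, and 17.7% of the 31-base stretches of its canonical transcript occur in other genes. Sqle, the squalene epoxidase and next step, was at 2176, 2173 and 1971 and 2446, 2069.7 and 2578. Its S1P replicate 2 fell inside the vehicle range while the other 2 S1P-treated samples were above it, and the log2 fold change of 0.17 (SE 0.09) was not called; without that sample it was 0.25, still under 0.3. Lss, which closes squalene epoxide into lanosterol, was at 1217, 1342 and 1171 with vehicle and 1877, 1570.2 and 1807 with S1P, with no overlap and a log2 fold change of 0.50 (SE 0.08).

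Cyp51 (ENSMUSG00000001467, chr5:4123416-4154751, - strand), the lanosterol demethylase, was one of the most abundant of the 30 transcripts, at 5034, 5325 and 4829 with vehicle and 6586, 8051 and 7202 with S1P. All S1P-treated samples were higher, with replicate 2 the highest, and the log2 fold change was 0.52 (SE 0.08); 28.3% of its exon bases lie under genes of the other strand, among them Akap9. Tm7sf2, a sterol C14 reductase, was among the scarcest by length together with Mvk, at 52.2, 64.2 and 44.1 and 68.2, 60.2 and 76.8. The groups overlapped and the log2 fold change of 0.36 (SE 0.19) was not called; it had the fewest counts of the 30 and a larger error than Cyp51. Of its exon bases 10.8% lie under Vps51 on the same strand.

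The demethylation of carbon 4 is carried out by Msmo1, Nsdhl and Hsd17b7 in turn. Msmo1, the oxidase, was at 1485, 1577 and 1309.8 with vehicle and 2088, 1803 and 2124 with S1P, a log2 fold change of 0.46 (SE 0.09). Nsdhl (ENSMUSG00000031349, chrX:71961712-72002129, + strand), the decarboxylating dehydrogenase, was at 612, 622 and 535 and 907, 912 and 996, a log2 fold change of 0.67 (SE 0.08) and the highest of the 11. Neither gene overlapped between the groups. Hsd17b7, the ketoreductase that ends this step and whose promoter window holds the core, CCAAT boxes and an E-box, was at 614, 606 and 561 and 641, 552 and 658, overlapping, with a log2 fold change of 0.06 (SE 0.09) that was not called. Genes of adjoining reactions thus differed in their call, though differences between genes were not tested.

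At the end of the chain Ebp, the sterol isomerase, was at 481, 545 and 467 with vehicle and 480.4, 519 and 534 with S1P, overlapping, with a log2 fold change of 0.04 (SE 0.09). Sc5d, the C5 desaturase, was at 1535, 1720.2 and 1573 and 1997, 2218 and 2242, every S1P-treated sample above, with a log2 fold change of 0.42 (SE 0.07). Dhcr7, which reduces dehydrocholesterol to cholesterol, was at 634, 726 and 572 and 797, 597 and 764. Only Sc5d of these 3 was called; S1P replicate 2 was low for Dhcr7, whose log2 fold change was 0.17 (SE 0.12), and 0.28 without that sample, also not called.

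**Figure D3:**
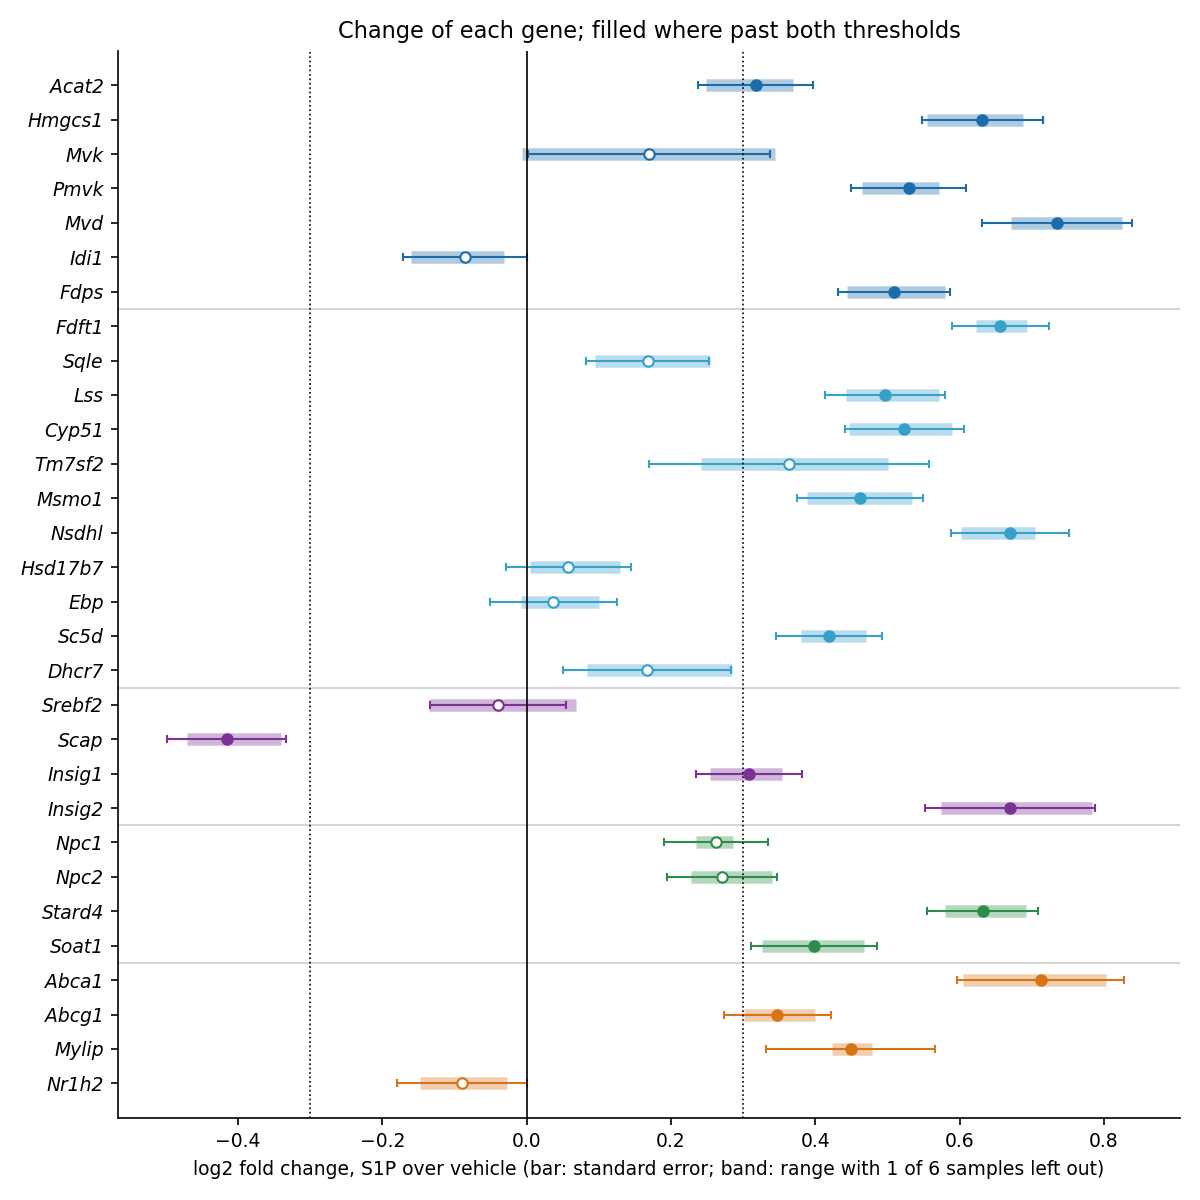
Log2 fold change of S1P over vehicle for each of the 30 genes (point; thin bar, standard error of the edgeR fit; pale band, lowest to highest value with 1 of the 6 samples left out), filled where called, with dotted lines at 0.3 in either direction. The filled points of synthesis run from Acat2 at 0.32 to Mvd at 0.73, and the bands of Acat2, Insig1, Npc2, Tm7sf2 and Mvk cross the upper line.

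The 4 genes that control SREBP2 did not move one way. Of them 2 were called higher, 1 was called lower and 1 was not called, against 12.7% higher and 10.4% lower over all tested genes. Their median log2 fold change was 0.13. Srebf2 (ENSMUSG00000022463, chr15:82031382-82093201, + strand), which encodes SREBP2 itself, was at 4833, 4741 and 4511 with vehicle and 5148, 3872 and 4679 with S1P. S1P replicate 1 was the highest of the 6 samples and S1P replicate 2 the lowest, so the groups overlapped, and the log2 fold change of -0.04 (SE 0.09) was not called; it ranged from -0.14 to 0.07 as single samples were left out. Scap (ENSMUSG00000032485, chr9:110158229-110214024, + strand), the escort protein that SREBP2 needs to leave the endoplasmic reticulum, fell: it was at 962, 956 and 892 with vehicle and 749.7, 624 and 728 with S1P. Its 3 S1P-treated samples all lay under the vehicle-treated ones, with means of 937 ± 38.5 and 700.3 ± 67.3 (SD, n = 3 per group), 25.0% lower, and a log2 fold change of -0.42 (SE 0.08) that was called in all 6 fits with 1 sample left out.

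Both Insig genes, whose products retain Scap, were called higher. Insig2 (ENSMUSG00000003721, chr1:121181760-121260400, - strand) was at 245, 239.8 and 221 with vehicle and 391, 309 and 420.5 with S1P, with no overlap and a log2 fold change of 0.67 (SE 0.12). Insig1, itself a known SREBP2 target, was at 1775, 1672 and 1545 and 2122, 2119.7 and 1939, also with no overlap. Its log2 fold change of 0.31 (SE 0.07) sat at the threshold, and the call was lost without vehicle replicate 3, S1P replicate 1 or S1P replicate 2, at 0.25, 0.28 and 0.29.

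For uptake, transport and storage, all 4 genes were higher in every S1P-treated sample than in any vehicle-treated one, as were 23.0% of all tested genes. Of the 4, 2 were called higher, against 12.7% of all tested genes, and 2 missed the fold threshold. Stard4 (ENSMUSG00000024378, chr18:33332197-33346942, - strand), a soluble sterol carrier and known SREBP2 target, was at 2824, 2973 and 2606 with vehicle and 4521, 3977 and 4517 with S1P. Its means of 2801 ± 185 and 4338 ± 313 (SD, n = 3 each) gave a log2 fold change of 0.63 (SE 0.08), or 1.55-fold, close in size to that of Hmgcs1. Soat1, which esterifies cholesterol for storage, was at 939.8, 1039 and 850.1 and 1344, 1181 and 1196, a log2 fold change of 0.40 (SE 0.09).

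Npc1 and Npc2 hand cholesterol out of the lysosome, Npc2 in its lumen and Npc1 in its membrane. Npc1 was at 549, 572 and 555 with vehicle and 672, 647 and 689 with S1P, and Npc2 at 3449, 3429 and 3701 and 4451, 3842 and 4463. Both had log2 fold changes just under the threshold, 0.26 (SE 0.07) for Npc1 and 0.27 (SE 0.08) for Npc2, and passed the adjusted p alone. Npc2 was called when vehicle replicate 3 or S1P replicate 2 was left out, at 0.30 and 0.34.

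Of the 4 genes of LXR-type efflux, 3 were called higher, against 12.7% of all tested genes, and the receptor gene was not called. Abca1 (ENSMUSG00000015243, chr4:53030787-53159900, - strand), which loads cholesterol onto lipid-poor apolipoproteins, was at 247, 212 and 203 with vehicle and 409, 330.4 and 343 with S1P. The groups did not overlap, and the log2 fold change of 0.71 (SE 0.12), or 1.64-fold, was second to that of Mvd among the 30 genes. Abcg1 (ENSMUSG00000024030, chr17:31276649-31336969, + strand), which exports cholesterol to lipoprotein particles, was at 893, 982 and 853 and 1178, 1107 and 1182, a smaller log2 fold change of 0.35 (SE 0.07), also with no overlap. Mylip, a ubiquitin ligase that removes lipoprotein receptors, was at 117, 125 and 120.1 and 167, 172 and 156, with a log2 fold change of 0.45 (SE 0.12); its call was lost without vehicle replicate 1 or vehicle replicate 3, where the log2 fold change was 0.42 and 0.44 and the adjusted p was 0.062 and 0.055. Nr1h2, which encodes LXRβ, was at 591, 508 and 554 and 539, 470.0 and 544, overlapping, with a log2 fold change of -0.09 (SE 0.09).

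Compared per length, the levels of the 30 genes spanned from 0.849 to 76.8 RPKM (counts per kilobase of annotated exon, scaled to library size; mean over all 6 samples). Hmgcs1 at 76.8 and Cyp51 at 71.2 led in both groups, followed in the mean over both by Npc2 at 43.5, Stard4 at 39.9, Srebf2 at 34.0 and Idi1 at 33.8. The order of the latter 4 differed between the groups: Stard4 was at 31.3 RPKM with vehicle, the lowest of them, and at 48.5 with S1P, beside 39.4 and 47.5 for Npc2. Srebf2 and Idi1 lay closer than their spread between replicates in both groups, and Hmgcs1 and Cyp51 did so with vehicle. At the low end stood Mylip at 2.95, Abca1 at 1.62, Mvk at 0.894 and Tm7sf2 at 0.849. Among the efflux genes the level of Abcg1 was 8.08 RPKM with vehicle and 10.3 with S1P, well above Abca1 at 1.23 and 2.01. The exon length is the union of all annotated exons, which lowers the RPKM of genes with long, seldom used exons.

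The spread between replicates of one group does not use the S1P comparison, and is given as a description, since genes measured in the same library are not independent. Vehicle replicate 2 was the highest vehicle-treated sample for 15 of the 18 synthesis genes and vehicle replicate 3 the lowest for 15 of 18. Over all 30 genes vehicle replicate 3 was lowest for 23 (76.7%), against 34.5% of all tested genes. Among S1P-treated samples replicate 2 was lowest for 21 of 30 (70%), against 40.0% of all tested genes, although for Cyp51, Fdft1 and Mylip it was the highest.

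In size, the median deviation of the 18 synthesis genes from their group mean was -0.01, 0.10 and -0.09 on the log2 scale in vehicle-treated replicates 1, 2 and 3 and 0.02, -0.11 and 0.07 in the S1P-treated ones, while the median over all tested genes lay within 0.01 of zero in every sample. Single synthesis genes deviated further, the most for Mvk, at 0.31 in S1P replicate 1 and -0.42 in S1P replicate 2. The median SD over replicates was 0.10 for the 30 genes with vehicle and 0.12 with S1P, against 0.10 and 0.15 for all tested genes. Vehicle replicate 2 also had the lowest sum of B cell markers and the highest sum of CD8 T cell markers of its group. S1P replicate 2 had the highest mitochondrial share. It also had the highest sums of its group for CD8 T cell (20286), B cell (8974) and CD4 T cell (4206) markers. The highest CD8 T cell sum thus fell on the replicate with the highest median deviation of synthesis genes with vehicle and the lowest with S1P. The part of these differences in the deviations was not tested.

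**Figure D4:**
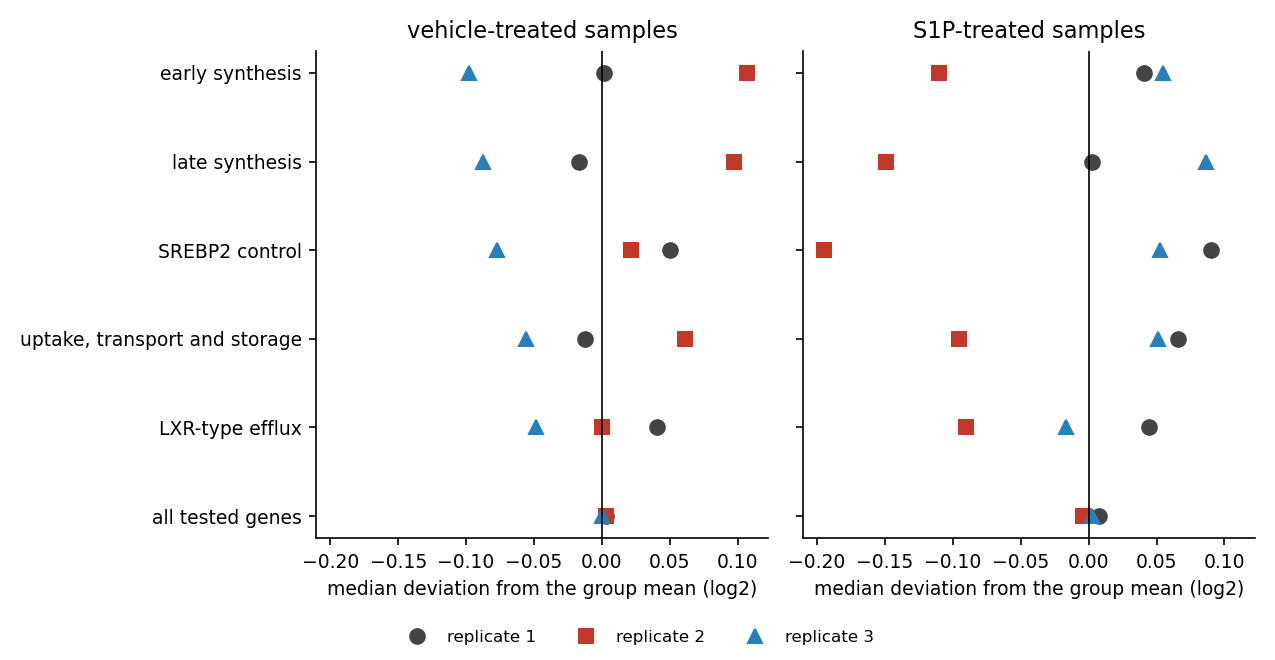
For each role, the median over its genes of each sample's deviation from the mean of its own group is shown on the log2 scale (horizontal axis; left panel vehicle, right panel S1P; marker shape, replicate), with all tested genes in the last row. In synthesis, vehicle replicate 2 lies near 0.10 and vehicle replicate 3 near -0.09, S1P replicate 2 lies on the negative side for every role, and all tested genes lie at zero.

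A further 50 genes of the same pathway that are not among the 30 were listed by hand, and 43 of them had enough counts to test. Of these 43, 9 were called higher, 3 lower and 31 were not called, so that 27.9% were called, near the 23.1% over all tested genes, and their median log2 fold change was -0.01. Of the 14 further genes of synthesis and of the isoprenoid branches, 3 were called higher and 1 lower. Erg28, a scaffold of the demethylation complex that holds Msmo1 and Nsdhl, rose from 851 ± 66.0 to 1164 ± 64.6 normalized counts (SD, n = 3 per group), with a log2 fold change of 0.45 (SE 0.08) and edgeR adjusted p of 0.00166. Por and Cyb5r3, which supply electrons to Cyp51, Sqle and the sterol oxidases, were called higher at 0.33 (SE 0.07) and 0.34 (SE 0.09) on the log2 scale with edgeR adjusted p of 0.00673 and 0.0115; the call of Por was lost without vehicle replicate 1 and without a filter on low counts, and that of Cyb5r3 without vehicle replicate 2 or S1P replicate 2. Pdss1, which makes the side chain of ubiquinone from the same isoprenoids, was called lower at -0.43 (SE 0.10) (edgeR adjusted p = 0.00736).

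Among 8 further genes of SREBP processing and sterol sensing, 1 was called lower and 7 were not called. Rnf145, a ligase that acts on Scap, was called lower at 2538 ± 49.8 with vehicle and 1912 ± 27.0 with S1P (SD, n = 3 per group), with a log2 fold change of -0.41 (SE 0.06) and an edgeR adjusted p of 0.000697. Srebf1 and the proteases Mbtps1 and Mbtps2, which cleave SREBP2, were not called.

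Of 16 further genes of uptake, transport and storage, 5 were called higher and 1 lower. Vldlr, a lipoprotein receptor, had the largest change of any gene listed here: it was at 69.8, 86.7 and 21.6 with vehicle and 711, 526 and 481 with S1P. Each S1P-treated sample was several times above the highest vehicle-treated one, a log2 fold change of 3.29 (SE 0.29) or 9.78-fold (edgeR adjusted p = 3.62e-05). Soat2, the second cholesterol esterification enzyme beside Soat1, was at 44.6, 53.5 and 57.2 and 212, 132 and 112, a log2 fold change of 1.58 (SE 0.24) (edgeR adjusted p = 0.000726). It remained the scarcer of the pair in counts, against 1240.4 ± 90.3 for Soat1 with S1P. Lrp1, another lipoprotein receptor, was at 25.2, 21.4 and 25.3 and 58.3, 35.9 and 37.8, a log2 fold change of 0.90 (SE 0.26) (edgeR adjusted p = 0.022); its call was lost in 4 of 6 fits with 1 sample left out and with DESeq2.

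Gramd1a and Gramd1b both carry cholesterol from the plasma membrane to the endoplasmic reticulum. Gramd1a was called higher at 0.34 (SE 0.07) (edgeR adjusted p = 0.00317) and the more abundant Gramd1b lower at -0.38 (SE 0.07) (edgeR adjusted p = 0.0016), while Osbp, Osbpl9, Gramd1c, Stard3 and Stard3nl were not called. Osbpl2, an oxysterol-binding protein, was called higher at 0.30 (SE 0.08) (edgeR adjusted p = 0.015), a call at the threshold that was lost without vehicle replicate 1 or S1P replicate 2, with DESeq2, with RLE or total count scaling and without a filter on low counts. In the list of LXR and oxysterol genes 5 of 12 could be tested. Smpdl3a, a phosphodiesterase known as an LXR target in human macrophages, was called higher at 0.43 (SE 0.15) (edgeR adjusted p = 0.0435), a call lost in 5 of 6 fits with 1 sample left out, with DESeq2, with total count scaling and without a filter on low counts. Nr1h3, which encodes LXRα, had 0 to 7.68 normalized counts and was too low to test, as were Abcg4, Ch25h, Cyp27a1, Cyp7b1, Cyp46a1 and Cyp39a1. Of the genes not called, those with the largest log2 fold changes were Stard3 at -0.23 (SE 0.09), Abca7 at -0.21 (SE 0.15), Lpcat3 at 0.21 (SE 0.09), Coq2 at -0.21 (SE 0.09) and Tmem97 at -0.20 (SE 0.11), with edgeR adjusted p of 0.0805, 0.331, 0.0994, 0.122 and 0.183. Without S1P replicate 1, Abca7 and Coq2 were called lower, with log2 fold changes of -0.46 and -0.31.

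**Figure D5:**
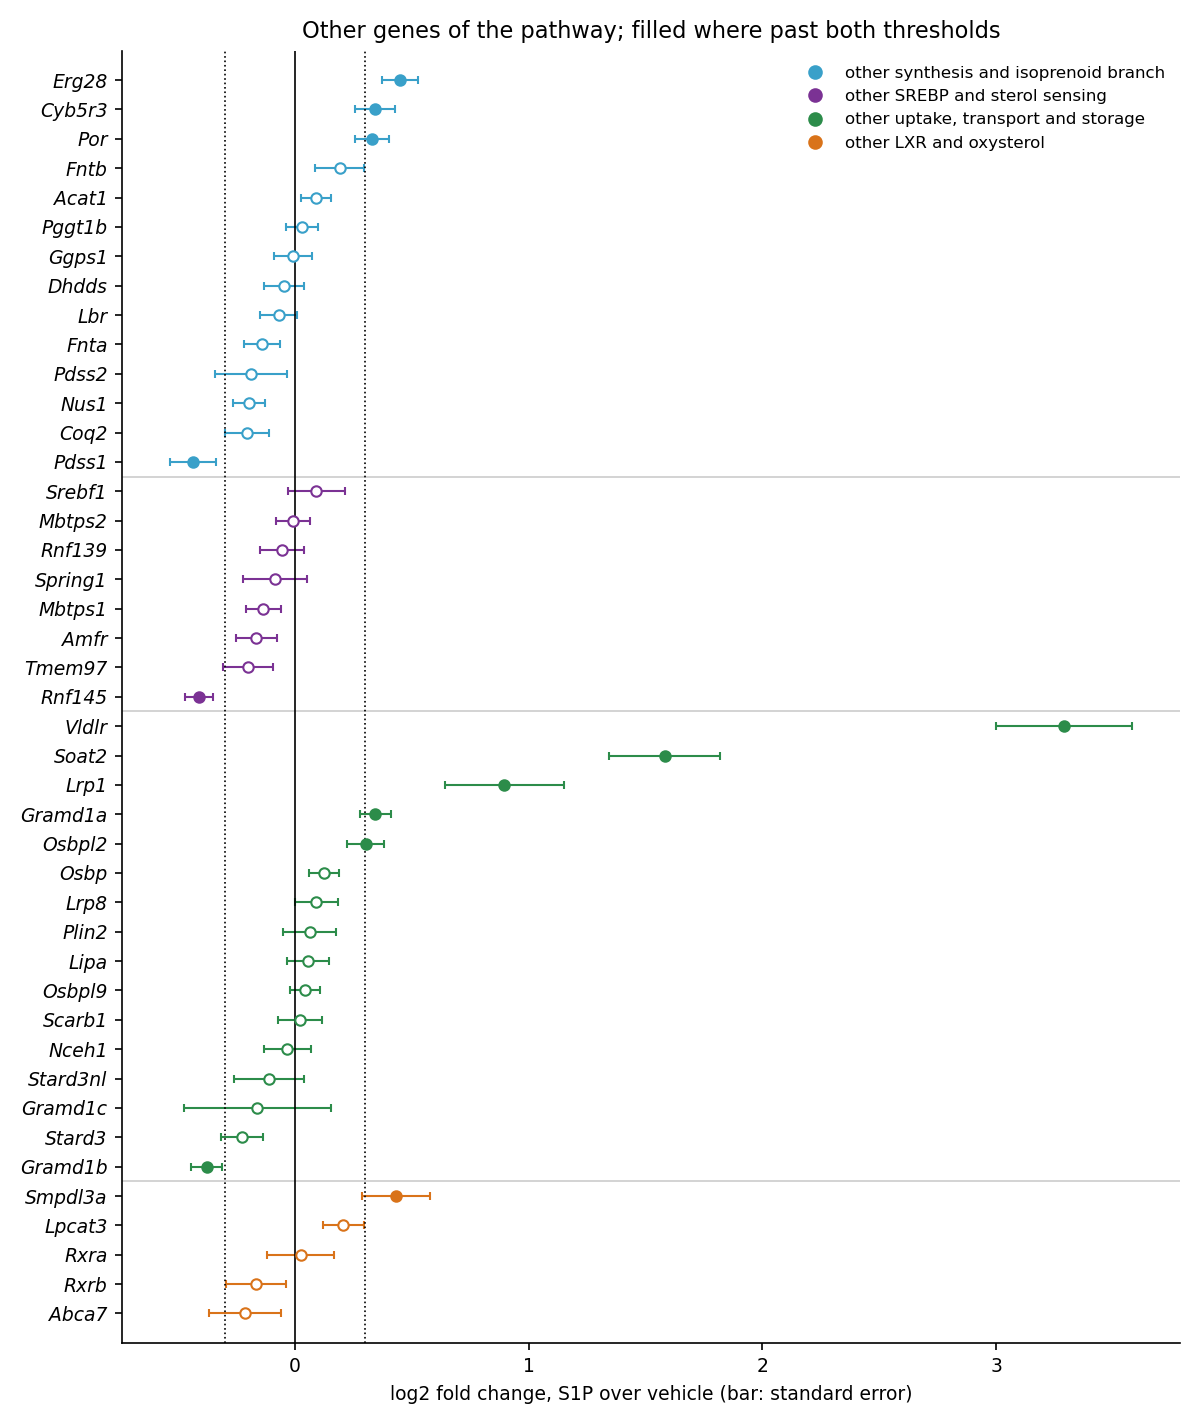
Log2 fold change of S1P over vehicle (horizontal axis; bar, standard error of the edgeR fit) for the 43 tested genes of the pathway that are not among the 30, grouped by role and filled where called. Most points lie between the dotted lines at 0.3 in either direction; Vldlr at 3.29, Soat2 at 1.58 and Lrp1 at 0.90 lie farthest to the right and Pdss1 at -0.43 farthest to the left.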

How the data were processed

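RNA-seq was measured in 6 samples, 3 with S1P and 3 with vehicle. Per the labels, poly(A) RNA was made into strand-specific libraries, and the submitters' processing notes name Trim Galore, STAR, featureCounts, DESeq2 and the build GRCm39; tool versions, the gene annotation, how strand was set in counting and how multi-mapped reads were handled are not given in the sources used here. The authors deposited whole-number read counts per gene, which were used without change; 56323 of the 56941 identifiers matched GENCODE vM39.

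From these counts, edgeR 4.0.16 (R 4.3.3; filterByExpr, TMM factors, quasi-likelihood test, treatment as the only term) was fitted to 13299 genes with Benjamini-Hochberg adjustment over all of them. Calls required both an adjusted p up to 0.05 and a log2 fold change of 0.3 or beyond. Single-sample deviations and the level axis were taken from log2 CPM (prior count 2). The script was tested on simulated data. The largest standard errors belong to low counts: the median SE was 0.31 among the 3326 genes with the fewest counts and 0.07 among the 3325 with the most.

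The 30 genes and all lists were chosen with earlier results of these data known. By rule, every one of the 30 was named, together with each called gene and the 5 largest uncalled changes among the other pathway genes, and cell type markers by list; some items of the lists are not reported here. Alternatives were DESeq2 1.42.0, limma-voom (limma 3.58.1), other scalings and filters, other thresholds, a replicate block and leaving out each sample. No sample was left out of the main fit. No replicate pair agreed within sampling noise. Promoter letters were read from the GRCm39 genome.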

Additional observations from a re-analysis of the deposited data

How the results depend on the processing

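The log2 fold change threshold was the choice that moved the counts most. At 1 in place of 0.3, edgeR called 383 genes higher and 82 lower, against 1687 and 1384. Of the 30 cholesterol genes it called 0 higher and 0 lower, and their largest value in any fit was 0.82 for Mvd without vehicle replicate 2. At an unadjusted p under 0.05 and no fold threshold, 20 of the 30 were higher and 1 lower with edgeR, and as many with DESeq2. Over all 13299 tested genes, edgeR had 2777 higher and 2605 lower at that unadjusted p. With limma-voom, other scaling factors, a minimum of 10 counts in every sample or the adjusted p alone, 18 to 20 of the 30 were called higher. DESeq2 and scaling by total count called 16, without Acat2 and Insig1, and no filter on low counts called 15, without Mylip as well. Scap was the 1 gene of the 30 called lower in each of these settings. Over all genes DESeq2 called 1296 higher and 1346 lower, total count scaling 1498 and 1511, and no filter on low counts 1727 and 1608. The adjusted p alone added 717 genes to the edgeR calls over all tested genes. With 1 sample left out, 16 to 18 were called higher and 1 lower; 16 of the 19 calls were made in all 6 such fits. Uncalled values that changed sign were those of Ebp (from -0.0080 to 0.10), Mvk (from -0.0062 to 0.34) and Srebf2 (from -0.14 to 0.068). Deviations of samples with the same replicate number correlated by 0.12, -0.0060 and 0.05. Pairs with different numbers correlated by -0.10 to 0.05. With 3 samples per group these values cannot tell whether same-numbered samples shared an origin. A replicate block called 18 of the 30 higher and 1 lower, and 1697 genes higher and 1423 lower over all tested genes. Other scalings moved the median of all genes by at most 0.03. Raw counts were low for Tm7sf2 (47 to 83), Mvk (87 to 226), Mylip (117 to 203) and Lrp1 (20 to 71). Soat2 (50 to 258) and Smpdl3a (104 to 179) were low as well. The part of low counts in these results was not tested.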
